A study of Rattus norvegicus with 6 samples.

Results

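The genes described here encode the clotting and complement factors that the liver secretes into plasma. They are 36 of the 32623 genes in a table of rat liver RNA, chosen by symbol from a list of 37, and fall into 19 clotting genes and 17 complement genes. No row carried the symbol Mbl2, which was not analysed here. Messenger RNA from rat (Rattus norvegicus) liver was sequenced in 2 groups of 3 libraries. The TAE group underwent transarterial embolization, which blocks the arteries that feed a liver tumour. The HCC group, from the same study of hepatocellular carcinoma, received no treatment and was the control. Strain, age, the tumour model, the embolic agent and the time after embolization are not given in the labels, nor is it stated whether the liver piece held tumour. The comparison asks how the RNA of these factors differed in liver after embolization.

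Most plasma clotting factors are made by hepatocytes as inactive precursors of proteases, which activate each other in a cascade that ends with thrombin cutting fibrinogen into fibrin. Protein C, protein S and serpins such as antithrombin hold the cascade in check, and plasmin dissolves the clot. Complement is a second cascade of plasma proteases that starts on antibody, sugar or bare surfaces, meets at C3 and ends with a pore of C6, C8 and C9 among others. Hepatocytes make most circulating complement, and macrophages also make some of it, C2 among them. Many of these genes are acute-phase genes, whose transcription in hepatocytes responds to cytokines of the IL-6 type through STAT3 and C/EBP factors, on top of HNF1 and HNF4 factors that drive liver genes.

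The upstream sequences of 5 members are shown because the members described below moved largely together across libraries, and these include the 3 fibrinogen genes, prothrombin and C6, which departed from the rest. The sequences are from RefSeq, build GRCr8, and give the 180 bases before each gene's start, 5′ to 3′ on the gene's strand. Fga is at chr2:170671989-170672168 (plus strand, the first of a pair of windows listed for that gene), Fgb at chr2:170700876-170701055 (minus), Fgg at chr2:170652903-170653082 (plus), F2 at chr3:98065247-98065426 (minus) and C6 at chr2:55573453-55573632 (plus). Capitals mark matches to 5 short motifs on either strand, namely the HNF1 core GTTAAT (or ATTAAC on the other strand), the HNF4 site CAAAGTCCA, the C/EBP site TTGCNNAA, the STAT site TTCNNNGAA, which reads the same on both strands, and the TATA box TATAAA.
Fga: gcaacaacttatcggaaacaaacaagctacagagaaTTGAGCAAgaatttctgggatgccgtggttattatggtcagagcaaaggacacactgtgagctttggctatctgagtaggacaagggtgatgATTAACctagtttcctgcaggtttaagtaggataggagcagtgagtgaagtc
Fgb: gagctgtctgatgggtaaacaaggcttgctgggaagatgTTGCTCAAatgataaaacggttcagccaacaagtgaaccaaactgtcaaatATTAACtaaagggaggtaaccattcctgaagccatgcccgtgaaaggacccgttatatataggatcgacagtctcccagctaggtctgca
Fgg: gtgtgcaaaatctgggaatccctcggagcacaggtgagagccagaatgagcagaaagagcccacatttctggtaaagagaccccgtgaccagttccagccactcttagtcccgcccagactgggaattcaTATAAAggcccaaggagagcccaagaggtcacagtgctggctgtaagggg
F2: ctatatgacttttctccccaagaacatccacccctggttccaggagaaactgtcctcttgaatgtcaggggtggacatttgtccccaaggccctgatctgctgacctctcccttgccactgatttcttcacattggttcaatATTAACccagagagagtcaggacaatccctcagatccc
C6: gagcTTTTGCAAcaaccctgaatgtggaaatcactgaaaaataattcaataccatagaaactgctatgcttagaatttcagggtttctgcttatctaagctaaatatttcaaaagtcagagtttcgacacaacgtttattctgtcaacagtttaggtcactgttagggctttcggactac
Fga and Fgb each hold an HNF1 core and a C/EBP site in the stretch shown, F2 an HNF1 core, C6 a C/EBP site and Fgg a TATA box. In Fga the HNF1 core lies at bases -52 to -47 and in F2 at -38 to -33, counted from -1 at the last base before the start. RefSeq gave a window for 30 of the 37 listed genes. Over the 250 bases before the start, 11 of 31 member windows (35.5%) held an HNF1 core, against 6.45% of all 33469 windows. A C/EBP site stood in 11 of 31 (35.5%) against 9.22%, and a STAT site in 6 of 31 (19.4%) against 7.67%. The HNF1 and C/EBP counts each include both windows of Fga, so that gene counts more than once. A TATA box stood in 1 of 31 (3.23%) against 12.9%, and the HNF4 letters in 0 of 31 against 0.338%. A match is a run of letters and not a shown binding site. No motifs overlapped in the stretches shown.

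Total counts were 14552885, 16578929 and 16604067 in TAE replicates 1 to 3 and 13448286 to 14370846 in the HCC libraries. Replicates differed beyond sampling noise in both groups, with a chi-square per degree of freedom of 51.0 to 209 between TAE libraries and 5.80 to 14.1 between HCC libraries. Whether the 3 libraries of a group stem from 3 animals is not stated in the labels, and the p-values below therefore reflect library-to-library spread that may be technical. Hepatocyte markers outside the member list were abundant in every library, with a summed level of 11340 to 34720 FPKM over 12 of 12 markers in TAE and 26780 to 32540 FPKM in HCC. FPKM is the fragment count per kilobase of exon, scaled to the library's total count. In a tissue sample, fewer hepatocytes and less RNA per hepatocyte cannot be told apart.

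None of the 36 members passed the test between TAE and HCC, and the TAE libraries stood on both sides of the HCC libraries. For 26 of the 36 members (72.2%), TAE replicates 1 and 2 lay below every HCC library and TAE replicate 3 above every HCC library, a pattern noticed in the data that 2.85% of the 14499 tested genes showed. All 36 members, including Cfb on counts too low to rank libraries, had the same order among the TAE libraries, lowest in replicate 2 and highest in replicate 3, which 15.7% of tested genes had. TAE replicate 2 was the lowest of all 6 libraries for 34 members, against 10.4% of tested genes, and TAE replicate 3 the highest for 33, against 16.0%. Relative to the HCC mean (log2), the median clotting gene was at -0.65, -1.30 and 0.39 in TAE replicates 1, 2 and 3, and at -0.14, -0.03 and 0.13 in the HCC libraries. The median complement gene stood at -0.51, -1.11 and 0.55 in TAE and between -0.02 and 0.03 in HCC. Of the 12 hepatocyte markers, 11 had the same order and Tat did not. The medians of the 12 markers were -0.88, -1.48 and 0.18 in TAE, and the part of these markers in the result was not tested. The median SD between replicates on the log2 scale was 0.87 in TAE and 0.13 in HCC for members, and 0.36 in TAE and 0.14 in HCC over all tested genes.

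**Figure D1:**
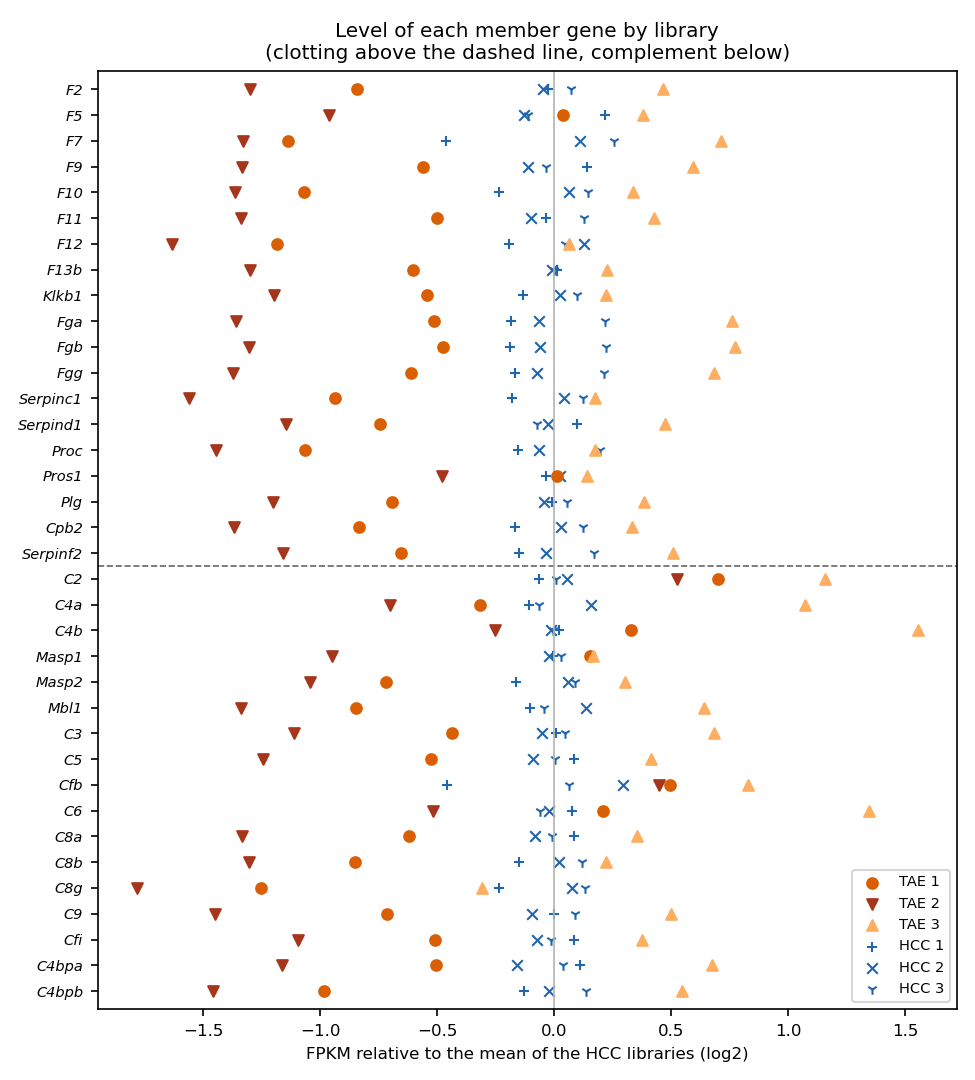
FPKM of each of the 36 member genes in each library, relative to the mean of the 3 HCC libraries on the log2 scale, with clotting genes above the dashed line and complement genes below it. TAE replicate 2 lies left of TAE replicate 1 and TAE replicate 3 lies right of both for all 36 genes, whereas the HCC libraries cluster near 0.

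In edgeR's quasi-likelihood test, 0 of 36 members passed an adjusted p of 0.05 over all genes, where 3.01% of the 14499 tested genes did (2.7% higher and 0.31% lower in TAE). An unadjusted p under 0.05 was reached by 1 member, against 22.7% of tested genes. All 36 members passed the filter on low counts. All 19 clotting genes and 12 of 17 complement genes had negative log2 changes, against 53.1% of tested genes. The median log2 change was -0.27 for clotting and -0.22 for complement members, and -0.03 over all tested genes. DESeq2 called 1 member, C2, higher, where 10.5% of the genes it tested were called, and 8.81% were called higher in TAE. The edgeR fits with another scaling or filter called 0 members, as did limma on FPKM. The share of all genes called was 3.28% with median-of-ratios scaling, 7.15% with the library total alone, 4.97% with upper-quartile scaling, 3.83% with no filter and 3.32% with a CPM of at least 1 in 3 libraries. It was 4.74% with limma on log2(FPKM + 1) and 4.79% with limma on log2(FPKM + 0.1), where 35 members were tested. The outcome depended on single TAE libraries. Without TAE replicate 3, edgeR called 20 members lower (12 clotting and 8 complement) and 0 higher, where 8.33% of tested genes were called and 3.51% were called lower, and the clotting and complement medians were -1.04 and -0.90. Without TAE replicate 2, it called 1 member (C2) higher and 0 lower, where 24.2% of tested genes were called and 14.6% were called higher, and the medians turned to 0.06 and 0.16. Without TAE replicate 1 or HCC replicate 2, 0 members and 1 gene in all (0.00681% and 0.00675%) were called, and without HCC replicate 1 or 3 no gene was called. Limma voom with sample quality weights gave TAE replicates 2 and 3 weights of 0.225 and 0.226 and TAE replicate 1 a weight of 2.37, and called 23 members lower and 1 higher, where 41.2% of tested genes were called, 19.5% lower and 21.7% higher.

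**Figure D2:**
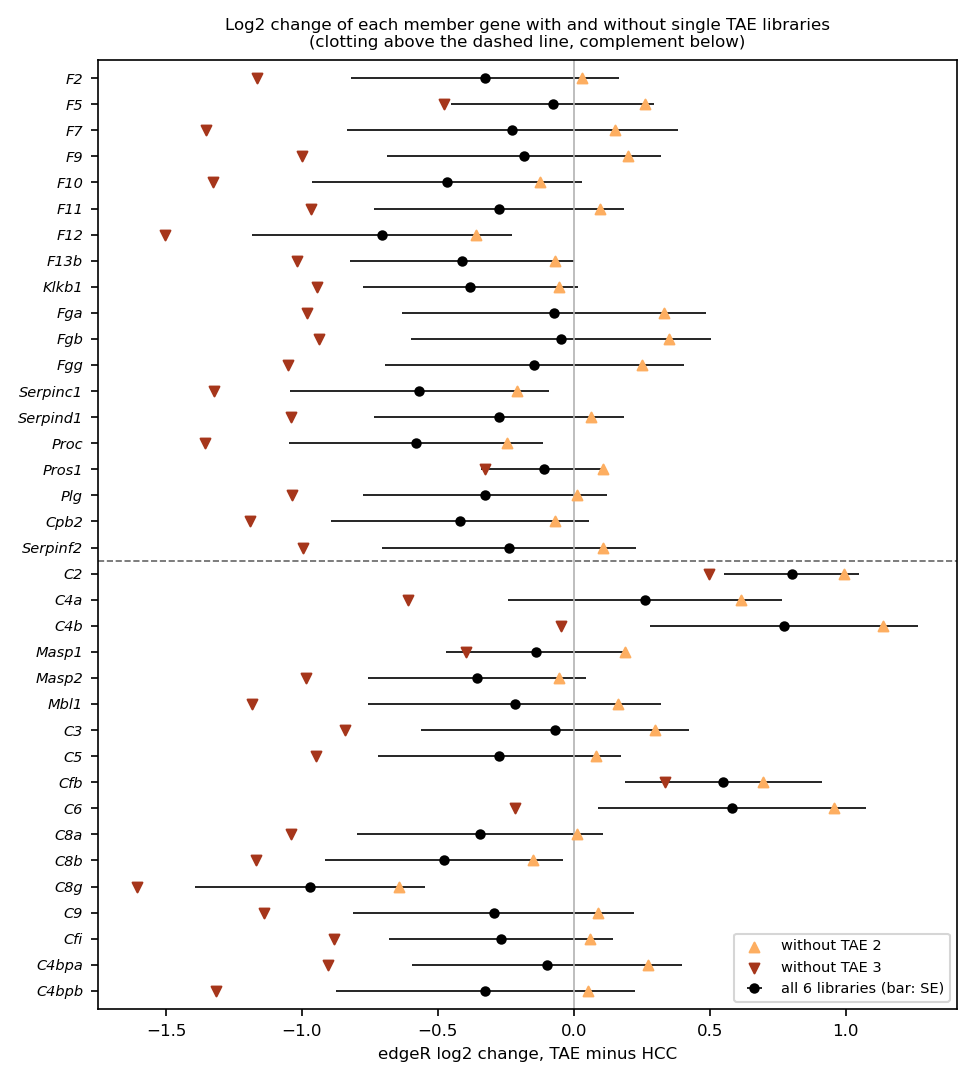
Log2 change (TAE minus HCC, edgeR) of each member with all 6 libraries (black, bars are SE), without TAE replicate 2 and without TAE replicate 3. The values without TAE replicate 3 lie left of those without TAE replicate 2 for every gene shown, and 34 of 36 are below 0.

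The members made up 1.97%, 1.22% and 4.41% of all counts in TAE replicates 1, 2 and 3, against 2.72%, 2.75% and 3.10% in the HCC libraries. Clotting genes took 1.08%, 0.652% and 2.52% in TAE, against 1.48%, 1.58% and 1.84% in HCC. Complement genes took 0.888%, 0.567% and 1.89% in TAE, against 1.24%, 1.18% and 1.27% in HCC. The share was thus lowest in TAE replicate 2 and highest in TAE replicate 3 for both cascades. The summed clotting level was 1.82, 1.69 and 1.99 times the summed complement level in TAE and 1.75, 1.94 and 2.11 times in HCC, and these ranges overlapped. Without the fibrinogen chains, a division chosen after the values were seen, the ratio was 0.499, 0.534 and 0.507 in TAE, below 0.565, 0.610 and 0.603 in HCC.

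**Figure D3:**
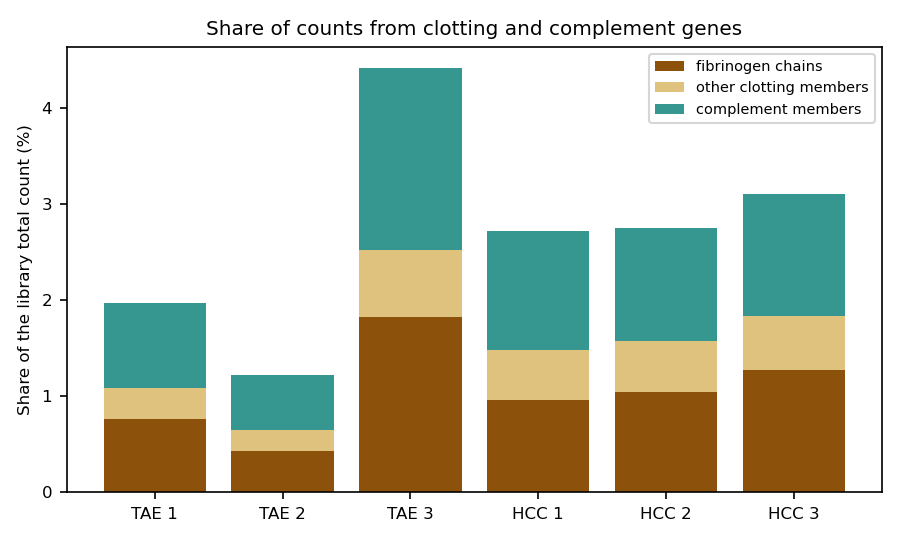
Share of each library's total count taken by the fibrinogen chains, the other clotting members and the complement members, in percent, stacked by library. The full bars reach 1.97%, 1.22% and 4.41% in TAE replicates 1 to 3 and 2.72% to 3.10% in the HCC libraries.

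Fibrinogen, the protein that forms the clot, is built from 3 chains encoded side by side on chromosome 2. Its genes had the highest mean levels of all members over the 6 libraries. They also had the widest fold range between TAE libraries, just above the 4.125-fold of F7, which had the larger SE. In single libraries C3 exceeded Fgb in 4 of 6 and Fga in 2. Fga, the alpha chain, had 1031, 574 and 2492 FPKM in TAE replicates 1 to 3 and 1296, 1406 and 1713 FPKM in HCC. Fgb, the beta chain, had 957, 539 and 2271 FPKM in TAE and 1166, 1274 and 1549 in HCC. Fgg, the gamma chain, had 1299, 766 and 3187 FPKM in TAE and 1765, 1888 and 2302 in HCC. All 3 chains were below every HCC library in TAE replicates 1 and 2 and above every HCC library in TAE replicate 3. The highest TAE library exceeded the lowest 4.34-fold for Fga, 4.21-fold for Fgb and 4.16-fold for Fgg, whereas the HCC libraries differed 1.30-fold to 1.33-fold. The log2 change of Fgg was -0.15 ± 0.55 (SE, edgeR adjusted p = 0.886), and those of Fga and Fgb were -0.07 and -0.05. The chains kept nearly fixed proportions while their levels varied. Fga stood at 0.794, 0.750 and 0.782 of the Fgg level in TAE and at 0.734, 0.745 and 0.744 in HCC, and Fgb at 0.737, 0.703 and 0.713 of it in TAE and 0.660, 0.675 and 0.673 in HCC. Both ratios were higher in each TAE library than in any HCC library.

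The protease precursors and cofactors of the cascade comprised 9 members, all with negative log2 changes and a list median of -0.33. F2, prothrombin (chromosome 3), was the most abundant, at 237, 172 and 585 FPKM in TAE and 417, 410 and 446 in HCC. Its log2 change was -0.33 ± 0.49 (SE, edgeR adjusted p = 0.699). F12, factor XII of the contact pathway, had the most negative log2 change of this list and did not pass. It stood at 36.7, 26.9 and 87.0 FPKM in TAE and at 72.9, 91.1 and 86.2 in HCC, a log2 change of -0.71 ± 0.48 (SE, edgeR adjusted p = 0.392, and 0.0142 without TAE replicate 3). TAE replicates 1 and 2 were thus below the HCC range and TAE replicate 3 was within it. F7, which starts clotting with tissue factor, had 7.53, 6.58 and 27.1 FPKM in TAE and 12.0, 17.9 and 19.8 in HCC. F9, the haemophilia B factor, had 90.8, 53.2 and 202 FPKM in TAE and 147, 124 and 131 in HCC. F10, which with F5 turns prothrombin into thrombin, had 52.6, 42.9 and 139 FPKM in TAE and 93.9, 115 and 122 in HCC. These 3 vitamin K-dependent proteases shared the order of prothrombin. F11 had 20.2, 11.3 and 38.3 FPKM in TAE and 27.8, 26.6 and 31.1 in HCC. Klkb1, plasma prekallikrein, had 41.3, 26.3 and 70.3 FPKM in TAE and 54.9, 61.3 and 64.4 in HCC. F13b, the carrier chain of the clot-stabilising factor XIII, had 34.4, 21.2 and 61.1 FPKM in TAE, whereas the HCC libraries lay within 51.8 to 52.6. F5, the cofactor of F10, differed from the others in replicate 1. It stood at 16.99, 8.48 and 21.5 FPKM in TAE and 19.2, 15.1 and 15.3 in HCC, so that TAE replicate 1 fell inside the HCC range.

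The 4 anticoagulants had a median log2 change of -0.42 and none passed. Serpinc1, antithrombin, had 134, 87.2 and 290 FPKM in TAE and 227, 265 and 280 in HCC, a log2 change of -0.57 ± 0.48 (SE, edgeR adjusted p = 0.482). Proc, protein C, had 35.2, 27.0 and 83.0 FPKM in TAE and 66.1, 70.3 and 84.2 in HCC, a log2 change of -0.58 ± 0.47 (SE, edgeR adjusted p = 0.464). In TAE replicate 3, Serpinc1 exceeded the HCC range by a small margin and Proc stayed inside it. Serpind1, heparin cofactor II, had 67.2, 50.9 and 156 FPKM in TAE and 120, 110 and 107 in HCC. Pros1, the cofactor of protein C, is also made by endothelium and other cells. It had 49.8, 35.5 and 54.4 FPKM in TAE and 48.3, 50.3 and 49.7 in HCC, a narrow range of 1.53-fold in TAE beside 3.07-fold to 3.32-fold for the other anticoagulants. The table places this row on chromosome 7, whereas RefSeq lists Pros1 on another chromosome in GRCr8, the 1 member for which they differ, so the identity of the row is uncertain.

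Among fibrinolysis genes, Plg, which encodes plasminogen, had 234, 165 and 494 FPKM in TAE and 376, 367 and 393 in HCC, a log2 change of -0.33 ± 0.45 (SE, edgeR adjusted p = 0.667). Cpb2, a carboxypeptidase that slows clot lysis, had 112, 77.7 and 253 FPKM in TAE and 179, 205 and 218 in HCC, a log2 change of -0.42 ± 0.47 (SE, edgeR adjusted p = 0.600). Serpinf2, the plasmin inhibitor, had 74.0, 52.3 and 166 FPKM in TAE and 105, 114 and 131 in HCC. The precursor and both of its brakes had the same order of libraries, and in each the groups overlapped.

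Among the starters of complement, C2 stood apart from the other members. C2, the protease precursor of the classical and lectin pathways (ENSRNOG00000051235, chromosome 20, 4542340 to 4561152 as deposited), had 132, 117 and 182 FPKM in TAE and 77.8, 84.6 and 82.0 in HCC. All 3 TAE libraries were above all HCC libraries. Its log2 change was 0.80 ± 0.25 (SE) with an edgeR adjusted p of 0.123, the lowest of the members, over alternatives 0.00367 to 0.340. DESeq2 gave an adjusted p of 0.0386, and edgeR without TAE replicate 2 gave 0.0198. Groups did not overlap for 3 members, C2 and Cfb higher and C8g lower in TAE, where 27.5% of tested genes had no overlap, 21.9% higher and 5.54% lower. On a TMM scale, which corrects for RNA composition, C2 alone stayed without overlap. The share of all tested genes without overlap on that scale was not recorded. Of 10 macrophage markers, 6 rose, and the other 4 did not pass. Of those 4, Cd163, Marco and Clec4f had log2 changes of -0.10, -0.05 and -0.38 with overlapping groups. The summed level of all 10, of which Lyz2 made up at least 53.3% in each library, was 3863 to 5438 FPKM in TAE and 1268 to 1494 in HCC. The part of these markers in the C2 values was not tested.

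The C2 and Cfb rows of the table overlap, which makes both uncertain as single genes. The Cfb row (ENSRNOG00000000419, chromosome 20, 4536203 to 4561066) covers nearly the whole C2 row on the same strand. Cfb, the protease of the alternative pathway, had 0.31, 0.30 and 0.39 FPKM in TAE and 0.16, 0.27 and 0.23 in HCC, from 21, 23 and 30 counts in TAE and 11, 17 and 15 in HCC. Its log2 change was 0.55 ± 0.36 (SE, edgeR adjusted p = 0.380), and these counts are too few to rank libraries. A further Cfb row (ENSRNOG00000051158) was listed at 0 in all 6 libraries. How the counting treated reads that fall in both genes is not given in the sources used here.

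The C4 genes, whose product is cut together with C2, have the same limit. C4a had 4.46, 3.42 and 11.7 FPKM in TAE and 5.16, 6.19 and 5.31 in HCC. C4b had 7.31, 4.88 and 17.1 FPKM in TAE, whereas the HCC libraries lay between 5.76 and 5.90, and its log2 change was 0.77. TAE replicates 1 and 3 were above the HCC range for C4b and TAE replicate 2 below it. A row described in the table as complement C4-like (ENSRNOG00000000443), which overlaps the C4b row, held more of the signal and was looked up after the values were seen. It had 31.8, 24.7 and 67.8 FPKM in TAE and 39.5, 39.3 and 50.7 in HCC. The sum of the 3 rows was 43.6, 33.0 and 96.6 FPKM in TAE and 50.6, 51.3 and 61.9 in HCC, which overlapped and had the library order of the other members.

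Of the lectin pathway genes, Mbl1, a mannose-binding lectin of rodents, had 49.1, 34.9 and 138 FPKM in TAE and 82.2, 96.8 and 85.7 in HCC. Masp2, the protease that cuts C4 and C2, had 21.9, 17.5 and 44.3 FPKM in TAE and 32.1, 37.4 and 38.3 in HCC. Both followed the library order with TAE replicates 1 and 2 below and TAE replicate 3 above HCC. Masp1, its partner protease, was nearly equal in TAE replicates 1 and 3. It had 23.4, 10.9 and 23.6 FPKM in TAE and 21.0, 20.7 and 21.5 in HCC. A row described as mannose-binding protein C-like (ENSRNOG00000050305, also looked up afterwards) had 5.17, 4.75 and 1.88 FPKM in TAE and 5.80, 5.77 and 6.10 in HCC, and so was lowest in the library where Mbl1 was highest.

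At the centre of the cascade, C3 was the most abundant complement gene. It had 982, 615 and 2129 FPKM in TAE and 1335, 1280 and 1369 in HCC, a log2 change of -0.07 ± 0.49 (SE, edgeR adjusted p = 0.943). C5, which yields the chemoattractant C5a, had 80.02, 48.7 and 154 FPKM in TAE and 122, 108 and 115 in HCC. Both were below HCC in TAE replicates 1 and 2 and above it in TAE replicate 3. C4bpa, the alpha chain of the C4b-binding protein that disarms C4b, had 211, 134 and 477 FPKM in TAE and 323, 268 and 307 in HCC, a log2 change of -0.10 ± 0.50 (SE, edgeR adjusted p = 0.915). C4bpb, its beta chain, had 145, 105 and 419 FPKM in TAE and 263, 283 and 316 in HCC, a log2 change of -0.33 ± 0.55 (SE, edgeR adjusted p = 0.730). Cfi, the protease that destroys C3b and C4b, had 192, 128 and 355 FPKM in TAE and 290, 260 and 272 in HCC. The 3 regulators thus had the library order of the proteins they restrain. C4bpb stood at 0.688, 0.783 and 0.878 of the C4bpa level in TAE and at 0.814, 1.06 and 1.03 in HCC, and these overlapped.

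The genes of the terminal pore did not keep their proportions. C9, which forms the ring of the pore, had 385, 231 and 892 FPKM in TAE and 630, 591 and 670 in HCC, a log2 change of -0.29 ± 0.52 (SE, edgeR adjusted p = 0.741). C8a, the alpha chain of C8, had 94.5, 57.7 and 186 FPKM in TAE and 154, 137 and 145 in HCC. C8b, the beta chain, had 68.7, 50.2 and 144 FPKM in TAE and 112, 126 and 134 in HCC. These 3 genes had TAE replicates 1 and 2 below and TAE replicate 3 above HCC. C8g, the lipocalin-like gamma chain (ENSRNOG00000028701, chromosome 3), had 27.1, 18.8 and 52.1 FPKM in TAE and 54.9, 68.0 and 70.8 in HCC. All 3 TAE libraries were below all HCC libraries in FPKM, whereas on the TMM scale the groups overlapped. Its log2 change of -0.97 ± 0.42 (SE) was the most negative of the members, with an edgeR adjusted p of 0.228, or 0.0145 without TAE replicate 3. C6, the first of these proteins to join C5b, went the other way. It had 70.4, 42.6 and 155 FPKM in TAE and 64.3, 60.1 and 58.5 in HCC, with a log2 change of 0.58 over all libraries and -0.22 without TAE replicate 3, neither of which passed. TAE replicates 1 and 3 were above the HCC range and TAE replicate 2 below it.

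Ratios within a library, chosen after these values were seen and so not tested, separated the groups for C8g and C6. C8g stood at 0.287, 0.325 and 0.281 of the C8a level in TAE and at 0.356, 0.495 and 0.490 in HCC. C6 stood at 0.183, 0.184 and 0.174 of the C9 level in TAE and at 0.102, 0.102 and 0.0872 in HCC. The C6 ratio was nearly equal in the 3 TAE libraries although the C6 level itself differed 3.64-fold between them. C8b, by contrast, stood at 0.727, 0.869 and 0.777 of C8a in TAE and 0.724, 0.915 and 0.929 in HCC, which overlapped.

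**Figure D4:**
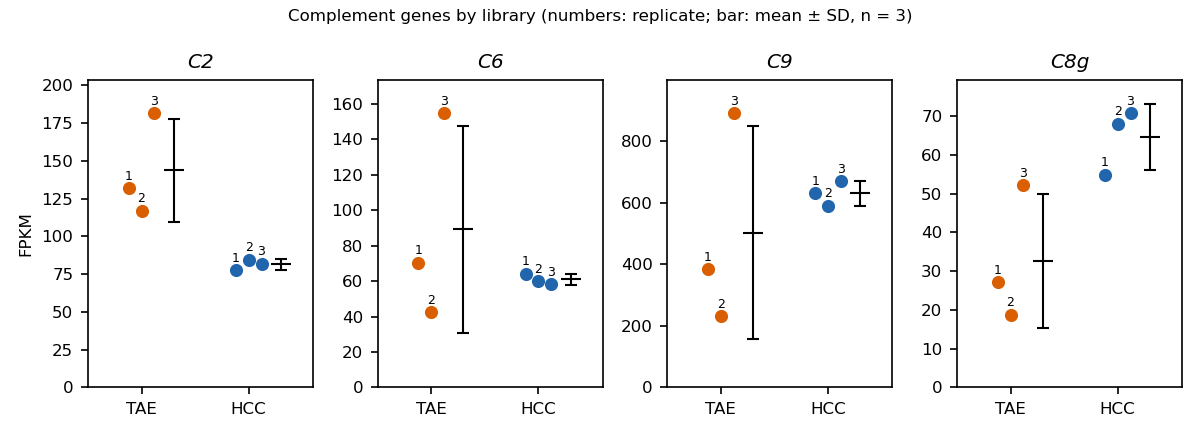
FPKM of C2, C6, C9 and C8g in each library, with TAE left and HCC right in each panel, the replicate number above each point, and the mean ± SD (n = 3) beside the points. For C2 all TAE libraries lie above HCC, for C8g all lie below, and for C6 and C9 TAE replicate 3 is above and TAE replicate 2 below HCC.

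Set against 12 chosen hepatocyte markers, most members were at or above their HCC level in the TAE libraries. Each level was divided by the geometric mean of the 12 hepatocyte markers of the same library (0.1 FPKM added to each value). Relative to the HCC mean (log2), the median member then lay at 0.27, 0.19 and 0.38 in TAE replicates 1, 2 and 3, so that the TAE libraries came close to each other. The median over all tested genes was 0.95, 1.67 and -0.19. On this scale 19 members were higher in all TAE than in all HCC libraries, where 28.6% of tested genes were, and C8g was lower, where 0.366% were (29.0% in all). The mean difference, TAE minus HCC, was a median of 0.26 for clotting and 0.36 for complement members, below the median of 0.77 over all tested genes. The markers themselves differed on this scale, for example -0.35 for Apoa1 and 0.39 for Tf. Differences of this size in members therefore depend on which markers were chosen. The mean difference was -0.00361 for Serpinc1 and -0.0046 for Proc, 0.40 for Fga and 0.48 for C3. It was 1.11 for C6, 1.30 for C4b and 1.56 for C2, and -0.15 for F12 and -0.34 for C8g. The antithrombin and protein C genes thus varied with the hepatocyte markers, and C2, C4b, Cfb and C6 stood furthest above them, of which the first 3 are uncertain as single genes. The complement C4-like row, which held most of the C4 signal, was at 0.58. In a ratio chosen after the values were seen, Fga stood at 0.148, 0.108 and 0.163 of the albumin (Alb) level in TAE and at 0.107, 0.0947 and 0.108 in HCC.

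**Figure D5:**
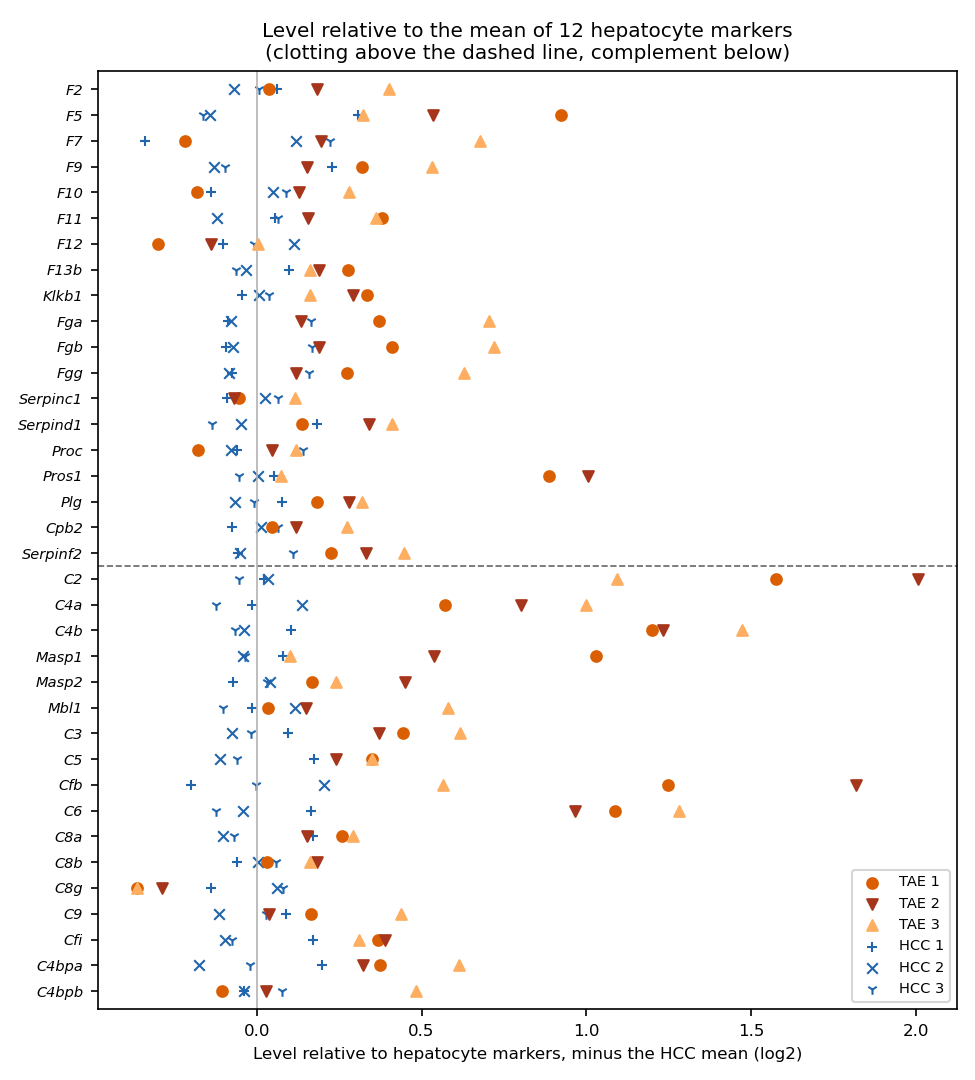
Level of each member relative to the geometric mean of 12 hepatocyte markers in the same library, minus the HCC mean, on the log2 scale. C2, C4b and C6 lie near or above 1 in all 3 TAE libraries, C8g lies below the HCC points, and most other members lie between 0 and 0.7.

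Other genes of the clotting and complement pathways gave 5 calls, all higher in TAE. Of 24 other clotting genes tested, 1 rose, 0 fell and the rest did not pass, where 2.7% of all tested genes were called higher and 0.31% lower. An unadjusted p under 0.05 in edgeR was reached by 7 of the 24, all higher, against 22.7% of all tested genes. Plau, the urokinase that activates plasminogen, had 44.3, 25.0 and 34.6 FPKM in TAE and 11.02, 9.72 and 7.58 in HCC, a log2 change of 1.84 ± 0.27 (SE, edgeR adjusted p = 0.0388). Kng1, the hepatic kininogen that carries prekallikrein, was picked out after its values were seen. It had 941, 515 and 3066 FPKM in TAE and 922, 845 and 959 in HCC (edgeR adjusted p = 0.480), a larger excess in TAE replicate 3 than any member had. Of 31 other complement genes tested, 4 rose and 0 fell, where 2.7% of all tested genes were called higher. The 4 were C3ar1, C5ar1, Itgam and Itgax, all receptors for complement fragments. An unadjusted p under 0.05 in edgeR was reached by 13 of the 31, all higher, against 22.7% of all tested genes. Secreted factors among the 13, picked after their values were seen, included C1qa, C1qb, C1qc, Cfd, Cfp and C7. In FPKM, 15 of the 31 were higher without overlap, where 21.9% of tested genes were. C3ar1, the C3a receptor, had 18.2, 9.06 and 15.3 FPKM in TAE and 3.65, 3.6 and 2.80 in HCC, a log2 change of 2.06 ± 0.32 (SE, edgeR adjusted p = 0.0388). C5ar1, the C5a receptor, had 46.7, 31.2 and 48.7 FPKM in TAE and 9.14, 15.3 and 10.5 in HCC. Itgam and Itgax, integrin chains that bind cleaved C3, had log2 changes of 1.71 and 1.94, and the table places Itgax within the span of Itgam on chromosome 1. All 3 TAE libraries exceeded all HCC libraries for the 5 called genes. The adjusted p of these 5 in edgeR was 0.186, 0.142 and 0.223 without HCC replicates 1, 2 and 3 and 0.145 without TAE replicate 1. It was 0.135 with the replicate number as a block. None of these calls held in those fits. C3ar1, C5ar1, Itgam and Itgax are genes of myeloid cells, and 6 of 10 macrophage markers also rose in TAE. The part of these cells in the calls was not tested.

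Of 7 vitamin K cycle and secretion genes tested, 0 rose and 1 fell. That gene, Fads1, is a fatty acid desaturase that does not belong to the vitamin K cycle. It had 82.7, 85.0 and 79.6 FPKM in TAE and 137, 139 and 146 in HCC (log2 change -0.82 ± 0.13 (SE), edgeR adjusted p = 0.0388). Its call was lost in the same fits as those above, the replicate block included, with the same adjusted p. The carboxylase and reductase of the cycle, Ggcx and Vkorc1, were picked for their role after their values were seen and had log2 changes of -0.09 and 0.05. The largest changes after Fads1 were -0.50 for Nqo1, a quinone reductase, and -0.30 for Lman1, a cargo receptor for factors V and VIII (edgeR adjusted p = 0.212 and 0.268). None of 13 hepatocyte transcription factors passed in edgeR (0 at an unadjusted p under 0.05), and the largest changes among those with a mean of at least 1 FPKM were -0.63 for Prox1 and -0.58 for Ppara (edgeR adjusted p = 0.275 and 0.322). Of 10 IL-6 pathway genes tested, 0 passed in edgeR and 1 had an unadjusted p under 0.05. Il6r, the IL-6 receptor, had 18.2, 16.5 and 17.9 FPKM in TAE and 13.5, 12.3 and 13.2 in HCC (log2 change 0.39, edgeR adjusted p = 0.175). Osmr, the oncostatin M receptor, had a log2 change of 0.30 (edgeR adjusted p = 0.656). Stat3 and Socs3, both part of the IL-6 signal and also picked after their values were seen, had log2 changes of -0.03 and -0.10. Of 7 platelet markers, Gp9, Gp1ba, Gp1bb, Ppbp and Gp6 were at or below 0.35 FPKM in every library, whereas Pf4, a chemokine of platelets that other cells can also express, had 64.8, 29.6 and 48.1 FPKM in TAE and 6.56, 12.2 and 7.56 in HCC, and rose (edgeR adjusted p = 0.0394). Itga2b, the platelet integrin chain and the other platelet marker tested, had 2.43, 1.92 and 6.89 FPKM in TAE and 4.88, 4.05 and 2.97 in HCC (log2 change -0.05, edgeR adjusted p = 0.962).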

How the data were processed

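Poly(A)-selected RNA of rat liver was sequenced from strand-specific dUTP libraries, per the labels' protocols, in 3 TAE and 3 HCC libraries grouped by title. For every gene and library the authors deposited a raw count and an FPKM, per the file headers. The deposited FPKM equals the count scaled to exon size and library total (largest deviation 0.005). The genome build is mRatBN7.2 per the submitters' processing notes, but gene ends on chromosome 1 reach 282724300, which is past the end of that chromosome in mRatBN7.2, so coordinates are printed as deposited and their build is not settled. No source used here gives the aligner, the counter or its use of strand, so overlapping and antisense genes and close copies are uncertain.

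Members were found by symbol, without regard to case. Where a symbol was repeated (Cfb), the row with the higher mean count was used. The members and gene lists were chosen with earlier results of these data known. The counts were tested with edgeR 4.0.16 (R 4.3.3, quasi-likelihood, TMM, filterByExpr) for TAE minus HCC, two-sided, with Benjamini-Hochberg adjustment over all 14499 tested genes and a threshold of 0.05. Each SE is |log2 change| over the square root of edgeR's F. Alternatives used DESeq2 1.42.0, limma 3.58.1 (mean FPKM of at least 0.5), other scalings and filters, sample weights, a replicate block, and the omission of each library. The scripts were tested on simulated data. Members were described by the rule that gives full statistics to the largest change and the highest level in each role list. Genes of other lists were named if called, or else as the 2 largest changes with a mean of at least 1 FPKM. Genes named outside this rule are marked as picked after their values were seen. Depth was 13448286 to 16604067 counts per library, so counting error was small except for Cfb. Cell markers of lymphocytes, neutrophils, endothelium, stellate cells, cholangiocytes and red cells were also listed. With 3 libraries per group, log2 changes of members had SEs up to 0.61.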

Additional observations from a re-analysis of the deposited data

How the results depend on the processing

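Members called numbered 0 in each direction under the other scalings, filters and limma fits on FPKM and under the replicate block, but not under 4 settings. DESeq2 called 1 higher, limma voom with sample quality weights called 1 higher and 23 lower, and leaving out 1 library gave 0 to 1 higher and 0 to 20 lower, the extremes being without TAE replicates 2 and 3. The cause was not tested. Member signs differed from the fit on all libraries for 21 of 36 when TAE replicate 2 was left out, and for 8 and 3 when TAE replicate 1 or 3 was. The clotting and complement medians ranged from -1.04 and -0.90 without TAE replicate 3 to 0.06 and 0.16 without TAE replicate 2. On TMM-scaled or median-of-ratios CPM, added after seeing the data, groups did not overlap for 1 member higher and 0 lower, against 2 and 1 in FPKM. In FPKM, 21.9% of tested genes were higher without overlap and 5.54% lower. The share of tested genes on the CPM scales was not recorded. Replicate numbers gave no clear sign of pairing, which 3 libraries per group are too few to exclude. Same-numbered deviations correlated at 0.10, -0.21 and 0.03. TAE replicate 1 correlated best with its own number, and TAE replicates 2 and 3 did not. With the replicate block, edgeR called 0 of 14499 genes and 0 members (2 members at an unadjusted p under 0.05), with medians of -0.55 and -0.47.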

Other observations

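Markers of other cell types were described by their median log2 difference from the HCC mean. Over all tested genes, 3.01% passed in edgeR and 22.7% had an unadjusted p under 0.05. Across TAE replicates 1, 2 and 3, stellate cell and fibroblast markers stood at 2.02, 0.94 and 1.15. Of these, 1 of 9 passed in edgeR and 8 had an unadjusted p under 0.05. Macrophage markers stood at 1.47, 0.93 and 1.84 (6 of 10 passed, 7 at an unadjusted p under 0.05). Neutrophil markers stood at 1.33, 0.62 and 1.58 (1 of 5 tested passed in edgeR, 4 at an unadjusted p under 0.05). Cholangiocyte markers stood at 1.48, 0.44 and 0.55 (1 of 5 passed, 3 at an unadjusted p under 0.05). Lymphocyte markers stood at -0.18, 0.59 and 1.37 (0 of 7 passed in edgeR, 2 at an unadjusted p under 0.05) and endothelial markers at 0.76, 0.16 and 0.63 (0 of 8 passed, 2 at an unadjusted p under 0.05). Red cell markers stood at 0.04, -0.47 and 1.51 (0 of 3 passed in edgeR, 0 at an unadjusted p under 0.05). The medians of red cell, macrophage and neutrophil markers all had the library order of the members. Of the single genes, 8 of 10 macrophage markers and 23 of 31 other complement genes had that order.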
